A study of Vitis vinifera with 26 samples.

Results

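The fading loci are 161 of 33229 assembled grapevine berry loci whose signal thinned out over 3 weeks of berry development in control clusters. They were chosen from control values alone. A locus qualified when it stood at 0.5 units or more in all 3 control libraries of 6 weeks after anthesis (WAA), in 1 to 4 of the 5 control libraries of 7 WAA, and in none of the 5 control libraries of 8 WAA. A unit is the constant step of a library's deposited values, explained under processing, and a locus at 0.5 units or more is called detected. The 161 loci were 1.36% of the 11876 loci detected in all 3 control libraries of 6 WAA. Tests compared treated libraries only, and 1 alternative fit also took its spread from the controls. The values of treated libraries played no part in the choice. They are not fully independent of the choice: treated and control clusters came from the same plants in the same weeks, so a difference between plants or sampling days cannot be told apart from one between weeks.

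RNA came from berries of the cultivar 'Pinot Noir' (Vitis vinifera) on field-grown plants 8 years old. Treated clusters at 6 WAA (3 libraries), 7 WAA (5) and 8 WAA (5) were held for 24 h in a bag with 1-methylcyclopropene (1-MCP) at 5 ppm, and control clusters of the same weeks (3, 5 and 5 libraries) had a mock treatment, with sampling after 24 h in both. A treated and a control cluster came from the same plant, and a plant is the biological replicate per the series design text. The description label calls every library, controls included, a treated cluster, so the groups rest on titles and source names.

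A grape berry grows in a first phase as a hard, green, acid fruit, pauses, and then ripens: at veraison, the onset of ripening, it softens, takes up sugar and, in dark cultivars, colours. Berries of a cluster, and clusters of a vine, do not pass veraison on the same day. Programmes of the green berry such as cell division and tannin synthesis wane around this time. Ethylene is a gaseous hormone with a lesser part in grape than in fruits such as tomato, and 1-MCP binds ethylene receptors and blocks them.

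Of the 161 loci, 143 carried a reference identifier of the form VIT_, and 18 carried none. The sources used here pair no identifier with a gene name, so loci are given by locus number, identifier and position. Positions are as the files print them, on a genome build not given in the sources used here, and no sequences are shown. Over all libraries, totals ran from 20368 to 23485 units and 13912 to 15261 loci were detected, of which 62.7% to 68.9% stood at exactly 1 unit. The number of sequenced reads is unknown, and 0 is written as listed at 0. As a check of the tissue, 3 short lists of identifiers recalled from the grapevine literature were looked up, without a means to check their membership. Of the tannin (proanthocyanidin) list, 5 loci were found, 3 of them detected in all 26 libraries and the rarest in 3. Of the 7 identifiers of the flavonoid enzyme list, 1 matched no locus, and the other 6 loci were detected in 4 to 26 libraries, 2 of them in all. The 3 loci of the anthocyanin list, genes of red pigment formation, were listed at 0 in all 26 libraries. No locus of these lists was a fading locus.

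In the control libraries that chose them, the fading loci were low. They averaged 1.30 units at 6 WAA, against 1.55 units over all loci detected in the 3 libraries, and 76.2% of their values there were exactly 1 unit, against 63.6%. At 7 WAA, 129, 46, 70, 90 and 38 of the 161 were detected in control replicates 1, 2, 3, 4 and 12. At the edges of the rule, 50 loci were detected in 1 control library of 7 WAA, 45 in 2, 31 in 3 and 35 in 4. Just outside it stood 14 loci detected in no control library of 7 WAA, 63 detected in all 5 of them (the switched-off loci below), 121 loci detected in 1 of 5 control libraries of 8 WAA, and 239 loci detected in 2 of 3 control libraries of 6 WAA. In treated values of 6, 7 and 8 WAA the 121 were detected in 77.4%, 62.8% and 32.4%, and the 239 in 52.02%, 43.7% and 13.4%. The 14 were detected in 42.9%, 17.1% and 10%, and the 63 in 96.3%, 87.3% and 21.0%. The lowest value counted as detected was 0.560 units.

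In treated clusters the same loci also thinned out from week to week. The treated libraries of 6 WAA held 130, 135 and 119 of the 161 loci in replicates 1 to 3. Those of 7 WAA held 76, 94, 138, 21 and 80 in replicates 1, 2, 3, 4 and 12. Those of 8 WAA held 26, 12, 7, 11 and 14 in replicates 1 to 5. The mean share of the loci detected was 79.5% ± 5.08 over the 3 libraries of 6 WAA (mean ± SD), 50.8% ± 26.1 over the 5 of 7 WAA and 8.70% ± 4.46 over the 5 of 8 WAA. All 3 libraries of 6 WAA lay above all 5 of 8 WAA, while 7 WAA spanned nearly the whole range between them. Replicate 3 of 7 WAA lay above the 6 WAA range and replicates 1, 2, 4 and 12 below it, with replicate 4 inside the 8 WAA range. Over the other loci detected in all 3 control libraries of 6 WAA, 96.0% ± 0.103, 95.2% ± 1.23 and 93.9% ± 0.784 were detected in treated clusters of 6, 7 and 8 WAA. The share of all 33229 loci detected was likewise nearly level, at 44.6%, 44.8% and 43.3%.

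**Figure D1:**
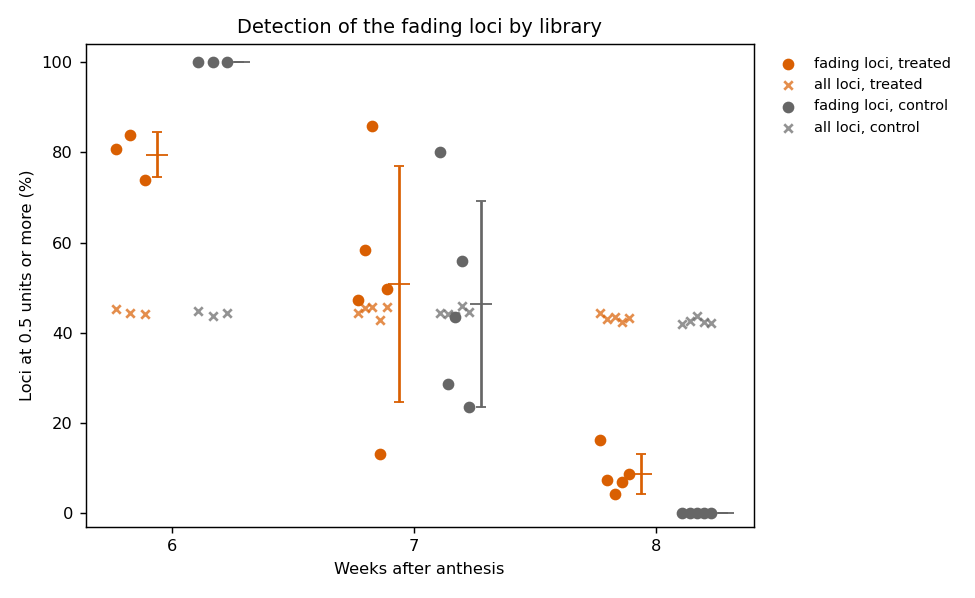
Share of loci at 0.5 units or more (y axis, %) against weeks after anthesis (x axis), with treated libraries left of control libraries; each dot is the 161 fading loci in 1 library, each cross all 33229 loci in that library, and bars give mean ± SD over libraries. Treated shares of the fading loci averaged 79.5%, 50.8% and 8.70% at 6, 7 and 8 WAA, while all loci stayed near 44%; the control values at 6 and 8 WAA are fixed by the rule.

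Locus by locus, 146 of the 161 were detected in a smaller share of treated libraries at 8 than at 6 WAA, 8 in the same share and 7 in a larger one. Among all 11876 loci detected in the 3 control libraries of 6 WAA, 14.1% had a smaller share and 7.22% a larger one. The share was smaller at each step, at 7 than at 6 and at 8 than at 7 WAA, for 112 of the fading loci (69.6%) and for 3.45% of those 11876. A complete separation, detected in 3 of 3 treated libraries of 6 WAA and 0 of 5 of 8 WAA, was seen for 79 of the 161 loci. Of the 20138 loci detected in any treated library 1.18% showed it, and of the 11876 loci detected in the 3 control libraries of 6 WAA 1.19%. The opposite, none at 6 WAA and all 5 at 8 WAA, was shown by 0 of the 161 loci and by 0.348% of those 20138. The count of 79 was 67 to 92 when any single control or treated library was left out. Leaving out a control library also changed the set of loci. The count was 92 of 229, 87 of 257 and 90 of 236 without control replicate 1, 2 or 3 of 6 WAA. These are smaller shares than 79 of 161. Without control replicate 1 of 7 WAA it was 67 of 131. Not every locus followed: 13 of the 161 were detected in no treated library of 6 WAA and 3 in no treated library at all.

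The share of treated libraries that held a fading locus fell with the weeks, as given above. The amount in a library that held it could fall little, since it is averaged over detections only and most stood at 1 unit. A detected fading locus averaged 1.31 units in treated clusters at 6 WAA, 1.33 at 7 WAA and 1.16 at 8 WAA, and 74.2%, 72.4% and 85.7% of these detections were at exactly 1 unit. Values this close to the smallest step resolve presence and absence and little else. In pooled berries, fewer cells or berries that express a gene and less RNA per cell cannot be told apart.

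**Figure D2:**
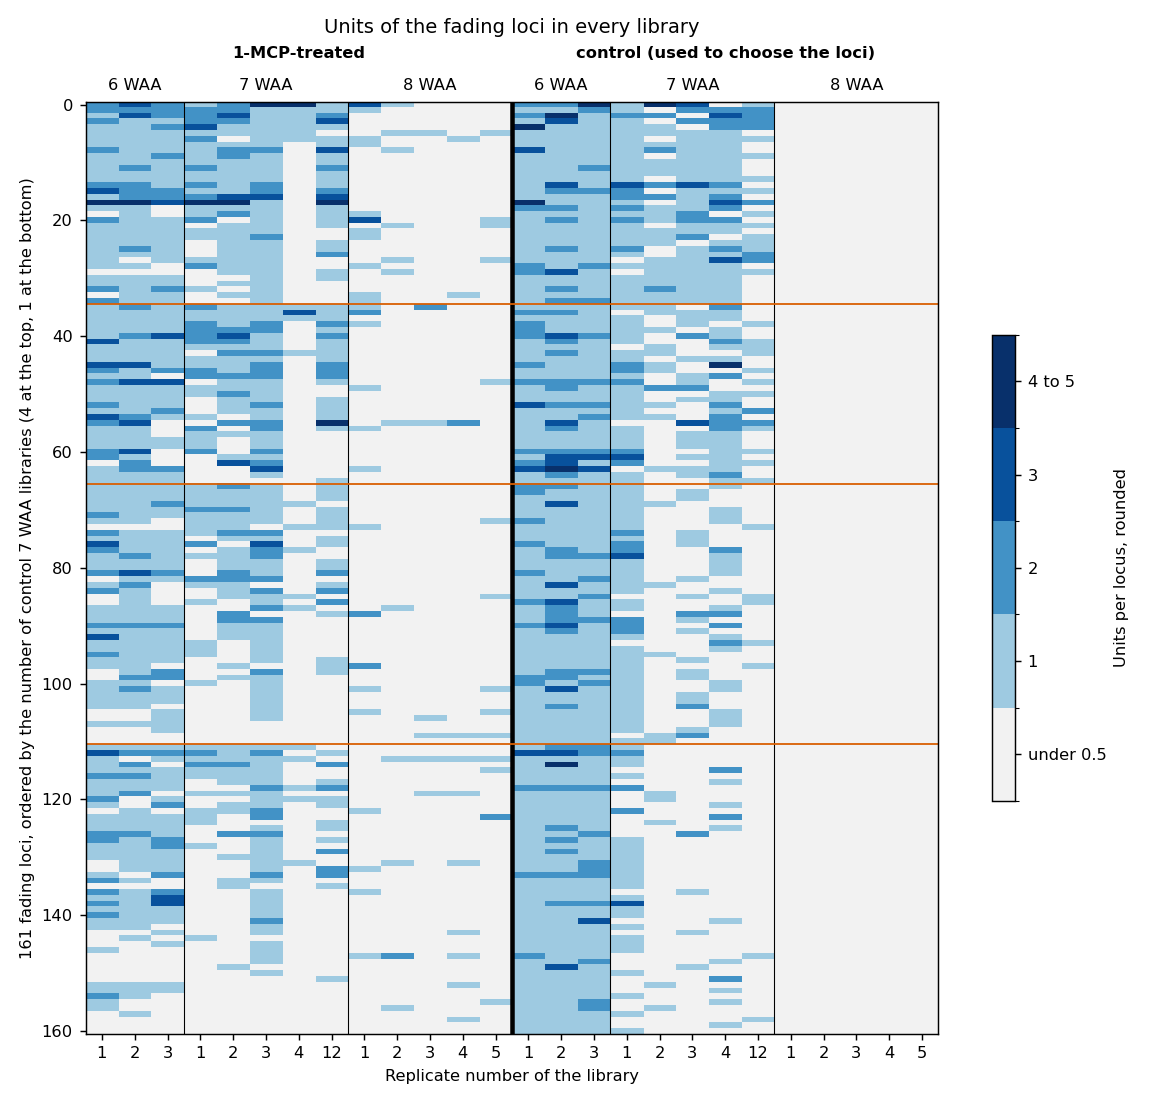
Units (colour) of the 161 fading loci (rows) in the 26 libraries (columns, by replicate number within week), treated left of control; rows are ordered by the number of control 7 WAA libraries that held the locus, with orange lines between 4, 3, 2 and 1. Treated libraries hold 119 to 135 of the loci at 6 WAA, 21 to 138 at 7 WAA and 7 to 26 at 8 WAA.

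The number of control libraries of 7 WAA in which a locus was present went with its presence in treated clusters. Loci detected in 1, 2, 3 or 4 control libraries of 7 WAA were detected in 32.8%, 46.7%, 63.2% and 70.9% of treated library values at 7 WAA. At 6 WAA the same 4 classes were detected in 64.0%, 79.3%, 91.4% and 91.4% of treated values. At 8 WAA they were at 8.40%, 6.22%, 7.10% and 13.7%, in no such order. The classes share their libraries and differ in length, with median longest isoforms of 1387, 1565, 1872 and 1627 bases.

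A test across all loci was made in the 13 treated libraries. limma, a linear model with moderated variances, was fitted to log2(units + 1), which understates changes of low loci, and 14498 tested loci shared 1 Benjamini-Hochberg adjustment, with a threshold of 0.05. At 8 versus 6 WAA, 42 of the 161 fading loci were lower and 0 higher. Over all tested loci 1.12% were called lower and 0.338% higher, and the 42 made up 25.8% of the 163 loci called lower. Of the 42, 40 separated completely between these weeks and 9 carried no reference identifier. Of the 161, 144 passed the filter on low values, which asks for detection in 3 treated libraries. Of these, 47 were detected in fewer than 3 libraries of 7 and 8 WAA, so they passed only through 6 WAA, and 16 of the 42 called are among them. At an unadjusted p under 0.05 in limma 109 of the fading loci were lower and 1 higher, against 6.45% and 4.12% of all tested loci. At 7 versus 6 WAA, 2 of the 161 were lower and 0 higher, against 0.11% and 0.0552% of all tested loci (limma, 41 lower and 1 higher at an unadjusted p under 0.05, against 3.01% and 3.78% of all tested loci). Both called loci were detected in treated libraries of 6 WAA only, so they passed the filter only through the week in which they are high. The unadjusted counts of 109 and 41 also include loci of the 47. How many of all tested loci passed in this way was not counted. At 8 versus 7 WAA, 4 were lower and 0 higher, against 0.241% and 0.166% (limma, 62 lower and 1 higher at an unadjusted p under 0.05, against 6.19% and 3.26%). Over every fading locus, tested or not, the median difference in mean log2(units + 1) was -0.33 at 7 minus 6 WAA, -0.40 at 8 minus 7 WAA and -1.0 at 8 minus 6 WAA, each beside a median of 0 over the other 11715 loci detected in the 3 control libraries of 6 WAA.

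These counts of calls hung on single libraries far more than the shares did. Without treated replicate 1, 2 or 3 of 6 WAA, 4, 7 and 7 fading loci were called lower at 8 versus 6 WAA, and without replicate 1, 2, 3, 4 or 5 of 8 WAA, 16, 8, 9, 10 and 10. With loci at 1 constant value kept in the fit, 9 were called. At 8 versus 7 WAA the count of 4 became 32 without treated replicate 4 of 7 WAA, the library with 21 fading loci. At 7 versus 6 WAA the count of 2 became 13 without treated replicate 3 of 7 WAA, the library with 138, and 0 without any 1 of the 3 libraries of 6 WAA, when both loci no longer pass the filter.

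The 3 loci with the smallest p at 8 versus 6 WAA stood at 1 unit or 0 in every treated library. XLOC_018897 (VIT_203s0038g02220, chromosome 3, 1527898 to 1529000) stood at 1 unit in all 3 treated libraries of 6 WAA and all 5 of 7 WAA, and was listed at 0 in all 5 of 8 WAA. Its log2 difference was -1.0 ± 0.13 at 8 versus 6 WAA (SE, limma, adjusted p = 0.00101) and -1.0 ± 0.11 at 8 versus 7 WAA (adjusted p = 0.000334). In control libraries of 7 WAA it stood at 1, 0, 1, 1 and 0 units. XLOC_004144 (no reference identifier, chromosome 12, 1627181 to 1633175) and XLOC_023823 (VIT_206s0004g02860, chromosome 6, 3587514 to 3588139) were gone a week earlier in treated clusters. Both stood at 1 unit in the 3 treated libraries of 6 WAA and were listed at 0 in all 10 later treated libraries. In control libraries of 7 WAA XLOC_004144 stood at 0, 0, 0, 1 and 0 units and XLOC_023823 at 1, 0, 0, 1 and 0. Both had a log2 difference of -1.0 ± 0.13 at 8 versus 6 WAA (limma, adjusted p = 0.00101) and at 7 versus 6 WAA (adjusted p = 0.00196). Both passed the filter only through the 6 WAA libraries in which they are present, so without any 1 of those, or with a filter of 5 libraries, they were not tested. The groups did not overlap, and since none of these 3 loci varied within a treated group, their SE comes from the moderation and measures no spread between clusters.

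Other loci in this test varied between libraries. XLOC_000802 (VIT_201s0244g00100, chromosome 1, 21665998 to 21669393) had 2 units in each treated library of 6 WAA, 0, 1, 1, 0 and 0 at 7 WAA and 0 in all 5 at 8 WAA, a log2 difference of -1.58 ± 0.25 at 8 versus 6 WAA (SE, limma, adjusted p = 0.0065). XLOC_005333 (VIT_212s0057g01510, chromosome 12, 10238153 to 10251367) had 1, 3 and 2 units at 6 WAA and 2, 3, 1, 1 and 2 at 7 WAA, and was listed at 0 in all 5 treated libraries of 8 WAA. It was level between the first 2 weeks and absent in the third, with log2 differences of -1.53 ± 0.26 at 8 versus 6 WAA (limma, adjusted p = 0.00978) and -1.43 ± 0.22 at 8 versus 7 WAA (adjusted p = 0.00657). XLOC_002846 (VIT_211s0016g00540, chromosome 11, 542210 to 552577) had 2, 1 and 3 units at 6 WAA, 0, 0, 1, 0 and 0 at 7 WAA, and 0 at 8 WAA, so that most of its units were gone by 7 WAA, although only 8 versus 6 WAA passed (-1.53 ± 0.26, limma, adjusted p = 0.0103, against 0.0986 at 7 versus 6 WAA). XLOC_000802 and XLOC_002846 were detected in fewer than 3 later treated libraries. Both thus passed the filter only through the 6 WAA libraries, in which they are high.

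XLOC_026151 (VIT_207s0104g01270, chromosome 7, 2300550 to 2305285) had 3, 2 and 2 units in treated libraries of 6 WAA, 1, 1, 2, 0 and 2 at 7 WAA and 0 at 8 WAA. XLOC_027444 (VIT_208s0007g02280, chromosome 8, 16323251 to 16328822) had the same 3, 2 and 2 units at 6 WAA, then 2, 1, 2, 0 and 1, and 0 at 8 WAA, and both differed by -1.72 ± 0.29 at 8 versus 6 WAA (SE, limma, adjusted p = 0.0103). In both loci the mean of each week lay below that of the week before, and the 7 WAA values overlapped those of 6 WAA. The rest of the 12 smallest p were those of XLOC_025468 (VIT_207s0005g02580), XLOC_032056 (no reference identifier), XLOC_025430 (VIT_207s0005g01840 and VIT_207s0005g01890) and XLOC_013234 (VIT_217s0000g05690). Their log2 differences lay between -1.66 and -1.39, with adjusted p between 0.0176 and 0.0251 (limma). Of these, XLOC_013234 also passed the filter only through the 6 WAA libraries. XLOC_019230 (VIT_203s0088g00650) and XLOC_027017 (VIT_208s0032g00700) tied with XLOC_013234 for the last place at the same p, and the order of locus numbers decided. XLOC_025468 was still at 1 unit in treated replicate 1 of 8 WAA, and XLOC_025430 in replicate 5.

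Of the 15 loci named by the rule given under processing that were called at 8 versus 6 WAA, leaving out treated replicate 1, 2 or 3 of 6 WAA ended 10, 7 and 7 calls among loci still tested (limma, adjusted p 0.0559 to 0.137), and leaving out replicate 1, 2, 3, 4 or 5 of 8 WAA ended 2, 7, 6, 6 and 5 (adjusted p 0.051 to 0.0684). XLOC_018897 and, with the filter limit given above, XLOC_000802 kept their calls in all of these fits. XLOC_004144 and XLOC_023823 kept theirs in the fits without a library of 8 WAA. Without any 1 library of 6 WAA both were no longer tested, so their calls were lost as well, beyond the 10, 7 and 7. XLOC_005333 lost its call without replicate 2 or 3 of 6 WAA, XLOC_002846 without replicate 1 or 3, and XLOC_026151 and XLOC_027444 without replicate 1.

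The next loci were picked for the most units in treated clusters, over all weeks or, among completely separated loci, over 6 and 7 WAA, so their presence at 7 WAA is partly set by that choice. Units are not per base, so they give no order of abundance between genes. XLOC_027870 (VIT_208s0032g00890, chromosome 8, 4565293 to 4569742) had 5, 4 and 3 units in treated libraries of 6 WAA, 4, 4, 1, 0 and 4 at 7 WAA, and was listed at 0 in all 5 of 8 WAA. In control libraries it had 4, 1 and 1 units at 6 WAA and 1, 0, 1, 3 and 2 at 7 WAA. Its log2 difference in treated clusters at 8 versus 6 WAA was -2.30 ± 0.45 (SE, limma, adjusted p = 0.0252), and it lost this call without any 1 of the 8 treated libraries of 6 and 8 WAA (adjusted p 0.0512 to 0.113).

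XLOC_026251 (VIT_207s0005g01430, chromosome 7, 3956188 to 3964070) had 1, 2 and 2 units in treated libraries of 6 WAA, 2, 3, 3, 0 and 3 at 7 WAA and 0 at 8 WAA. Its log2 difference at 7 versus 6 WAA was 0.13 ± 0.38 (SE, limma, adjusted p = 0.968). Replicate 4 of 7 WAA was the only library of its week at 0, and with that library in the fit the locus did not pass (limma, adjusted p = 0.104 at 8 versus 6 WAA and 0.08 at 8 versus 7 WAA), while without it the adjusted p was 0.000852 and 0.000298. XLOC_010411 (VIT_215s0021g01380, chromosome 15, 11639624 to 11665562), with 1, 2 and 3 units at 6 WAA and 2, 3, 1, 0 and 2 at 7 WAA, was also at 0 there alone, with an adjusted p of 0.06 at 8 versus 6 WAA (limma) that was 0.00541 without that library and 0.0437 without replicate 2 of 7 WAA. XLOC_006589 (VIT_213s0067g02030, chromosome 13, 1138605 to 1141807) had 2, 1 and 1 units at 6 WAA, 2, 2, 1, 1 and 3 at 7 WAA and 0 at 8 WAA, and its log2 difference at 8 versus 7 WAA was -1.43 ± 0.20 (SE, limma, adjusted p = 0.00287). XLOC_027535 (VIT_208s0007g04360, chromosome 8, 18308665 to 18314658) had 3, 3 and 1 units, then 1, 1, 2, 0 and 2, then 0 (limma, adjusted p = 0.0294 at 8 versus 6 WAA). The fourth locus called at 8 versus 7 WAA, XLOC_020942 (VIT_204s0023g03720 and VIT_204s0023g03740), was named after its values were seen, and had 1, 1 and 2 units, then 3, 1, 1, 1 and 1, then 0 (limma, adjusted p = 0.0165).

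**Figure D3:**
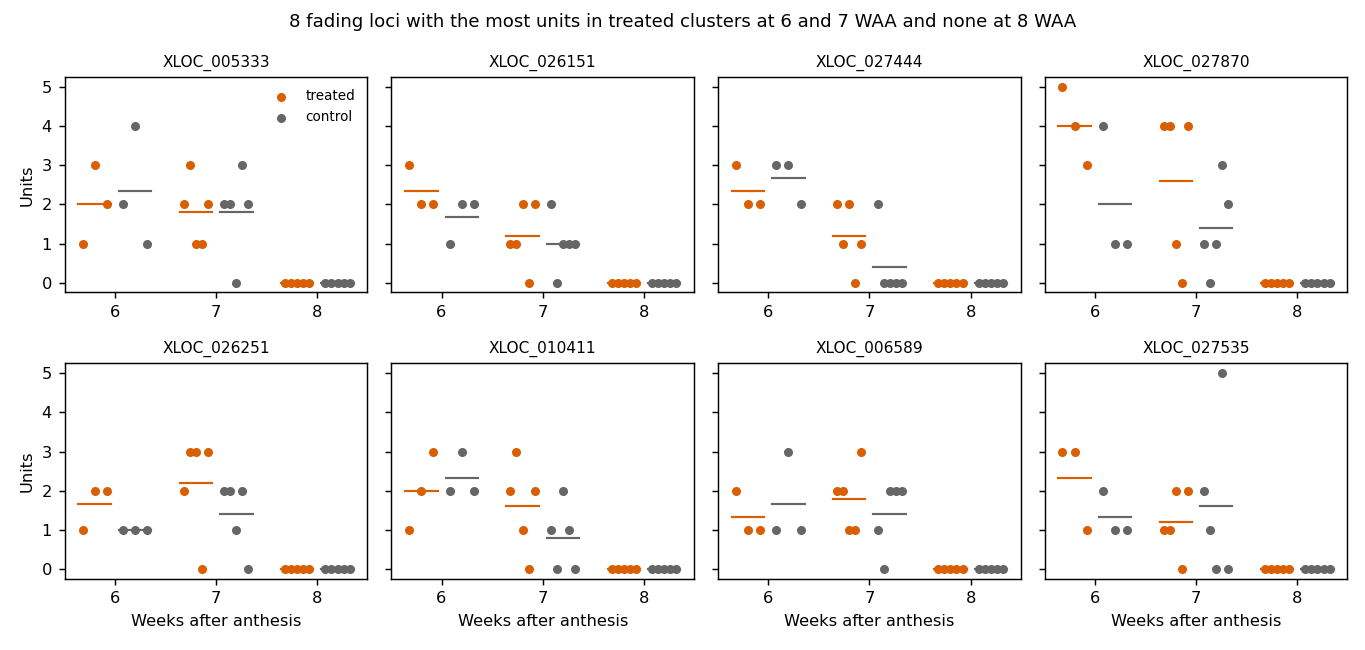
Units per library (y axis) against weeks after anthesis (x axis) for 8 fading loci, treated left of control; each dot is 1 library and each line a group mean. All 8 were listed at 0 in the 5 treated libraries of 8 WAA, and 6 of them were also listed at 0 in 1 treated library of 7 WAA, replicate 4.

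A minority of the fading loci were detected in treated clusters at 8 WAA, most of them in 1 library only. Of the 161, 113 were detected in none of the 5 treated libraries of 8 WAA, 32 in 1, 11 in 2, 4 in 3 and 1 in 4. Of the 11876 loci detected in the 3 control libraries of 6 WAA, 1.85% were detected in none. XLOC_023775 (VIT_206s0004g02260 and VIT_206s0004g02270, chromosome 6, 2678343 to 2687933) was the one in 4, with 1, 0 and 1 units at 6 WAA, 1, 1, 1, 1 and 0 at 7 WAA and 0, 1, 1, 1 and 1 at 8 WAA. It did not thin out in treated clusters at all (log2 difference 0.13 ± 0.32 at 8 versus 6 WAA, SE, limma, adjusted p = 0.949). XLOC_012509 (VIT_217s0000g03520, chromosome 17, 3406289 to 3418039) was listed at 0 in all 3 treated libraries of 6 WAA and had 1, 2, 0, 1 and 0 units at 8 WAA. XLOC_000708 (VIT_201s0010g02670, chromosome 1, 19723261 to 19737190) was listed at 0 in all 8 treated libraries of 6 and 7 WAA and had 0, 0, 1, 1 and 1 units at 8 WAA. Both ran opposite to the rule in the clusters that the rule had not used, and neither difference passed (0.72 ± 0.35, adjusted p = 0.525, and 0.60 ± 0.25, adjusted p = 0.392, SE, limma, 8 versus 6 WAA). XLOC_030317 (VIT_200s0184g00040), XLOC_023116 (VIT_205s0049g00480), XLOC_006434 (VIT_213s0064g00560) and XLOC_004274 (VIT_212s0028g03480) were each detected in 2 or 3 treated libraries of 8 WAA and did not pass either (limma, adjusted p 0.392 to 0.872).

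At 7 WAA single treated libraries differed more than the weeks on either side. Replicate 3 held 138 of the fading loci and was the only treated library of 7 WAA with 22 of them. Replicate 4 held 21, and 30 loci were present in the other 4 libraries and missing there. The libraries with fewer loci mostly held loci that replicate 3 also had: it contained 94.7% of those in replicate 1, 93.6% of those in replicate 2, 95.2% of those in replicate 4 and 90.0% of those in replicate 12, where 85.7% of all 161 were in replicate 3. Replicate 4 also detected the fewest loci overall among the treated libraries of 7 WAA, 42.8% against 44.4% to 45.8%, and 93.3% against 94.8% to 96.5% of the other loci detected in the 3 control libraries of 6 WAA. The part of this lower detection in its count of fading loci was not tested. Without replicate 4 of 7 WAA and replicate 1 of 8 WAA, a choice made after seeing the data, the fading loci were detected in 60.3% ± 17.6 of treated values at 7 WAA (SD, n = 4) and 6.83% ± 1.83 at 8 WAA (n = 4).

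Another pair of control-chosen sets was read in the same treated libraries. The switched-off loci, 63 loci detected in all control libraries of 6 and 7 WAA and none of 8 WAA, kept 92.1% to 98.4% of their number in 4 treated libraries of 7 WAA and 54.0% in replicate 4. At 8 WAA they stood at 54.0% in replicate 1 and at 6.35% to 17.5% in the others, so replicate 4 of 7 WAA and replicate 1 of 8 WAA, the latest week's highest library for fading loci too, held the same share. The stepwise rising loci, 52 loci with the mirror image of the rule (none at 6 WAA, 1 to 4 of 5 at 7 WAA, all 5 at 8 WAA), were at 53.8%, 44.2%, 32.7%, 50.0% and 59.6% in treated replicates 1, 2, 3, 4 and 12 of 7 WAA. Replicate 3 was thus highest for fading loci and lowest for rising loci, whereas replicate 4, lowest for fading loci, was in the middle for rising loci. Averaged over libraries, the rising loci were at 30.8% ± 15.4 at 6 WAA, 48.1% ± 10.3 at 7 WAA and 87.3% ± 5.01 at 8 WAA in treated clusters (SD, n = 3, 5 and 5).

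**Figure D4:**
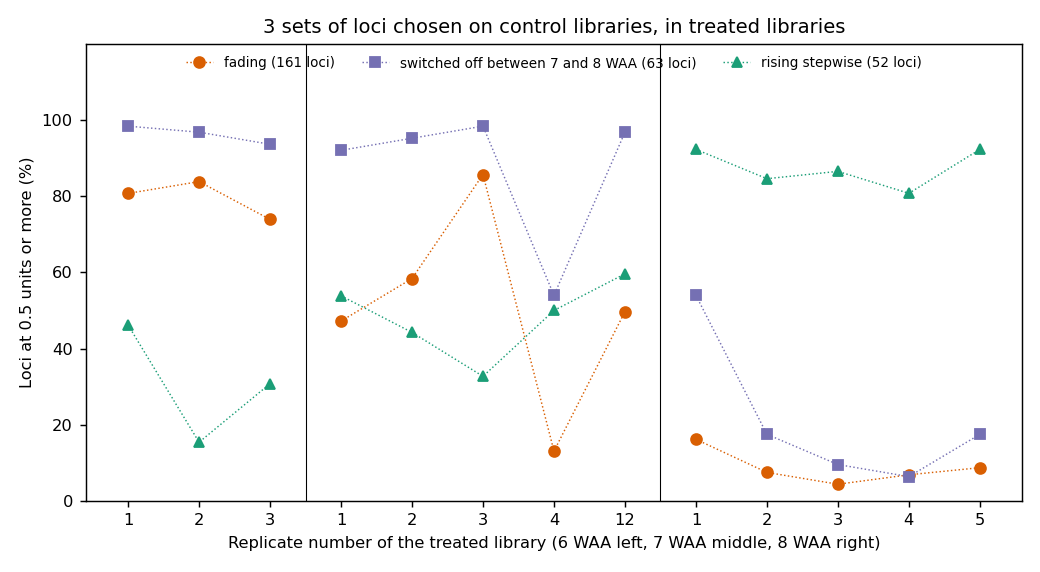
Share of loci at 0.5 units or more (y axis, %) in each treated library (x axis, replicate number within week) for 3 sets of loci chosen on control libraries; dotted lines join libraries of a week and carry no order. Replicate 4 of 7 WAA is lowest for fading (13.04%) and switched-off loci (54.0%), and at 8 WAA replicate 1 is highest for both (16.1% and 54.0%).

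Treated and control clusters of one plant can be set side by side, but the rule used the controls, so no test of 1-MCP was made on these loci. At 7 WAA the treated cluster held 76 and the control cluster 129 of the fading loci in plant 1. The counts were 94 treated and 46 control in plant 2, 138 and 70 in plant 3, 21 and 90 in plant 4, and 80 and 38 in plant 12. The treated cluster held more in 3 plants and fewer in 2, and the ranges of treated and control counts overlapped. At 6 WAA the treated clusters held 130, 135 and 119 against 161 in each control, and at 8 WAA 26, 12, 7, 11 and 14 against 0, where the rule sets the control values, so that a treated cluster could hold no more at 6 WAA and no fewer at 8 WAA.

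When the rule was turned round and applied to the treated libraries alone, it found 199 loci, 0.988% of those detected in any treated library. The lists from treated and from control libraries shared 73 loci, which is 36.7% of the treated list and 45.3% of the control list.

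The fading loci were shorter and simpler than other loci present at 6 WAA. The median longest isoform was 1565 bases, against 2424 bases over the 11876 loci detected in the 3 control libraries of 6 WAA, and the median number of assembled isoforms was 2 against 3. A single isoform was assembled for 41.0% of them, against 19.8%. Since detection depends on length and on level and the rule takes loci near the detection limit, these differences are given as a description. Of the 95 fading loci with more than 1 isoform, 27 showed a single isoform over all 26 libraries and 42 showed every one. From 6 to 7 WAA, over treated and control libraries, fewer isoforms were seen at 7 WAA at 24 of these loci, more at 22 and the same number at 49, with 6 libraries of 6 WAA and 10 of 7 WAA behind these counts. Isoforms that match the reference carried 58.4%, 58.6% and 56.7% of the fading loci's units in treated clusters of 6, 7 and 8 WAA, and those with new splice junctions 21.6%, 24.0% and 31.0%. The 8 WAA shares rest on only 80.9 units, 32.9 of them in replicate 1, against 502 units at 6 WAA and 542 at 7 WAA.

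Loci without a reference identifier were 18 of the 161 (11.2%), against 2.70% of the loci detected in the 3 control libraries of 6 WAA and 6.57% of all loci. They were detected in 94.4% of treated values at 6 WAA, 54.4% at 7 WAA and 2.22% at 8 WAA, and 15 of the 18 were present in all 3 libraries of 6 WAA and none of 8 WAA. At 7 WAA treated replicates 1, 2, 3, 4 and 12 held 12, 11, 17, 0 and 9 of them. At 8 WAA replicate 1 held 2 and the other 4 libraries none. The 303 other loci without an identifier that were detected in the 3 control libraries of 6 WAA stood at 88.1%, 83.8% and 79.3% in treated clusters of the 3 weeks. For the 133 fading loci with an identifier on the sense strand the shares were 78.4%, 51.6% and 9.77%.

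Antisense loci, whose isoforms overlap a reference gene on the other strand in the code of the attribute table, were 10 of the 161 (6.21%), against 2.37% of the loci detected in the 3 control libraries of 6 WAA. They were detected in 66.7%, 34% and 6.00% of treated values at 6, 7 and 8 WAA, and 5 of the 10 separated completely. No label used here states whether the libraries kept the strand, so reads of such a locus and of the gene opposite it may not have been told apart. One of them, XLOC_028506, lies opposite VIT_208s0007g06870 and stood at 1 unit in all 3 treated libraries of 6 WAA, at 0, 1, 1, 0 and 1 at 7 WAA and at 0 in all 5 of 8 WAA. It was named after its values were seen.

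The fading loci lay on every chromosome. Chromosome 17 held the most, 16, or 2.90% of its 551 loci detected in the 3 control libraries of 6 WAA, and chromosome 19 held 3, or 0.599% of 501. A gap of at most 50000 bases to the next fading locus was found 9 times. No such count was made for other loci, so whether the fading loci lie closer together than others was not tested. The densest run was on chromosome 10, where XLOC_002488 (VIT_210s0003g03320, 5527662 to 5530267), XLOC_001925 (VIT_210s0003g03340, 5539130 to 5542435) and XLOC_001927 (VIT_210s0003g03360, 5571634 to 5575855) were separated by 8863 and 29199 bases, with 1 assembled locus between each pair. In treated libraries of 6 WAA the first had 1, 1 and 1 units, the second 2, 1 and 0, and the third 0 in all 3, so these neighbours did not share 1 pattern there, and all 3 were listed at 0 in the 5 treated libraries of 8 WAA. These positions were picked out after the values were seen.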

How the data were processed

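Values were taken as the authors deposited them, 1 signal value for each of 90542 isoforms in each of 26 libraries, on a scale set by the authors, with isoform length in bases in a separate attribute table. The submitters' processing notes list Bowtie2 2.2.3; no source used here names the quantifying program, build or annotation. Nearly all signal values were multiples of 1 step per library (1.03 to 1.05), so isoforms were summed per locus and divided by that step; 97.7% to 98.5% of sums above 0 lay within 0.01 of whole units. Within groups the variance averaged 0.367 to 0.430 times the mean, below what sampled reads give, so a count test was left out and the number of reads stays unknown. The median log2 difference of all tested loci was 0 between weeks. With most detected values at exactly 1 unit this median can hardly move, so it cannot show that the libraries were level. Total units in treated clusters averaged 22495 at 6 WAA, 22943 at 7 WAA and 21905 at 8 WAA. The 13 treated libraries were fitted with limma 3.58.1 (R 4.3.3) on log2(units + 1), a mean per week, without a block, keeping loci at 0.5 units or more in at least 3 libraries that were not constant. The test was tried on shuffled values with units added to some loci at 8 WAA. No locus was lowered in that trial, so it says nothing about calls of loci that fall to 0. Tables and figures were made with Python 3.11.15. Separate plants are the replicates, per the labels' design text; whether plants recur between weeks is not stated. Named loci are the 12 fading loci with the smallest p among those called at 8 versus 6 WAA, the 8 with the highest treated mean, the 8 completely separated loci with the highest treated mean at 6 and 7 WAA, and the 6 detected in most treated libraries of 8 WAA. Members and lists were chosen with earlier results of these data known.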

Additional observations from a re-analysis of the deposited data

Results flagged for a closer look

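The count of switched-off loci was 34 in treated replicate 4 of 7 WAA, where the other 4 treated libraries of that week had 58 to 62, and 34 in treated replicate 1 of 8 WAA, where the others had 4 to 11. In each case that library's distance from its nearest neighbour was over 0.71 of the range of its group, a limit that chance exceeds in about 1 of 20 groups of 5.

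Of 48 groups of 5 treated libraries checked for the named loci, 8 had a lone library by the same measure. A lone library at 1 unit among others at 0 was seen for XLOC_002846 and XLOC_012509 in replicate 3 of 7 WAA, for XLOC_025468 in replicate 1 of 8 WAA and for XLOC_025430 in replicate 5 of 8 WAA. A lone library at 0 among others at 1 unit was seen for XLOC_023775 and XLOC_023116 in replicate 12 of 7 WAA and for XLOC_023775 in replicate 1 of 8 WAA, and XLOC_004274 stood at 2 units in replicate 1 of 7 WAA with 1 unit in the others. With values of 0 and 1 any lone library meets this measure.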

How the results depend on the processing

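The rule found 131 to 257 loci when 1 control library was left out, against 161, with 257 when replicate 2 of 6 WAA was left out. The mean treated share lay between 68.1% and 82.7% at 6 WAA, 42.1% and 60.3% at 7 WAA and 6.83% and 13.8% at 8 WAA when any 1 library was left out. Complete separation held for 67 to 92 loci, out of sets that differed in size. It held for 87 of 257 without control replicate 2 of 6 WAA, against 79 of 161 with all libraries. A detection limit of 0.9 units, any value above 0, or 0.5 on the deposited scale left these results within their limits of 1.5 times or 1 SD. Counts of calls did not hold as well (limma). When 1 treated library was left out, the loci called at 8 versus 6, 7 versus 6 and 8 versus 7 WAA numbered 65 to 278, 0 to 52 and 50 to 201, against 212, 24 and 59, and the fading loci called lower 4 to 58, 0 to 13 and 4 to 32, against 42, 2 and 4. With constant loci kept, 78 loci and 9 fading loci were called at 8 versus 6 WAA, and 6 of the 15 named calls ended (adjusted p 0.0552 to 0.072). With a filter of 5 libraries, 6 and 0 were called at 7 versus 6 WAA. In a fit of all 26 libraries 13 loci were called at 7 versus 6 WAA, and 118 loci and 16 fading loci at 8 versus 7 WAA. At 8 versus 6 WAA that fit called 61 fading loci lower. Its spread comes partly from the control libraries that chose the fading loci, where the rule fixes 8 WAA at no detection. Its counts of fading loci are thus shaped by the choice and carry no weight. Without replicate 4 of 7 WAA and replicate 1 of 8 WAA together, chosen after seeing the data, 53 loci were called at 7 versus 6 WAA, and 288 loci and 35 fading loci at 8 versus 7 WAA. A replicate block by the number in the titles gave 80 loci and 7 fading loci at 8 versus 6 WAA and 2 fading loci at 8 versus 7 WAA. Of the 15 named calls at 8 versus 6 WAA it ended 11, XLOC_000802, XLOC_005333 and XLOC_002846 among them (limma, adjusted p 0.0973 to 0.271), and at 8 versus 7 WAA those of XLOC_005333 and XLOC_006589 (0.188 and 0.0505). Deviations of same-numbered treated libraries of different weeks correlated at -0.019 to 0.10, with 1 of 10 pairs over 0.1, against 0 of 45 differently numbered pairs. With values mostly of 0 or 1 unit, these correlations cannot decide whether a number marks the same plant. The fit with a block therefore stands beside the main one. The cause of these shifts was not tested, and no named locus changed direction with a call. Values of 1 unit limit what can be resolved.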
